A study of Mus musculus with 8 samples.

Results

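The genes of the PI3K, AKT and mTOR pathway were examined for chromatin accessibility, as measured by ATAC-seq, in differentiating spermatogonia of the neonatal mouse. A peak was taken as belonging to the pathway when the gene list that the authors attached to it held 1 of 34 gene symbols exactly, and genes within 10 kb were on that list. All 34 genes had peaks, out of 21490 genes with a peak in the series. Their 884 peaks, of 328733, fell into 207 of the 87144 regions obtained by merging overlapping peaks, and 73 of these regions were also assigned to a gene outside the pathway.

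In ATAC-seq a transposase inserts sequencing adapters into open DNA. The assay was performed on germ cells that were sorted for eGFP from the testes of PIWIL2-eGFP mice, in which the transgene marks all germ cells and not 1 type of spermatogonium. All mice, the 0 h mice included, were fed 100 mg/kg of WIN 18,446, an inhibitor of retinoic acid (RA) synthesis, for 7 days from 2 dpp (days post partum). The 0 h mice received no RA, and the others were collected 18, 48 or 120 h after 200 µg of RA given at 9 dpp. The authors assign these timepoints to A undiff, A1/A2, A3 and B spermatogonia, so that time post-RA, cell type and age cannot be told apart. Each timepoint had 2 libraries, each from 1 mouse. The strain was C57BL/6 x 129s4/SvJae by the labels and C57BL/6 x SJL by the methods.

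Insulin and IGF1 receptors recruit the adaptors IRS1 and IRS2, which activate PI3K, a lipid kinase made of a catalytic and a regulatory subunit. The lipid it makes brings PDPK1 and AKT to the membrane, and AKT inhibits the GSK3 kinases, the FOXO factors and the TSC complex. Without TSC, the GTPase RHEB activates mTOR complex 1, which drives translation through S6 kinases and 4E-BP proteins. In the testis, the pathway is known for its part in the maintenance of spermatogonia and in their RA-induced differentiation, where it raises the translation of transcripts already present.

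The height of a peak was the tag coverage at its summit, after the authors had reduced all libraries to the same number of tags. In the 15536 regions where all 8 libraries had a peak, median heights were 224 and 270 at 0 h and between 86 and 166 later, so the 0 h libraries stood apart as a whole. The lowest summit in a library was 24 or 25, and a region without a peak lay below the calling limit, with no known height. At least 8 of 9 germ cell markers had a peak within 1000 bp of their start in every library, with summed heights of 2805 and 3232 at 0 h and 1183 to 2442 later. Of 5 Sertoli cell markers, 4 had such a peak in each 0 h library (summed heights of 393 and 552) and 1 to 3 in each later library (57 to 246), with no Rhox5 peak at a start. Leydig and endothelial markers had none at their starts, but the endothelial Pecam1 and Cdh5 together had 10 and 9 assigned peaks at 0 h and 2 to 6 later, and Leydig markers 2 and 3 at 0 h and 0 to 2 later. Macrophage markers had a start peak in 1 of the 0 h libraries alone, and both peritubular markers, Acta2 and Myh11, had start peaks in 7 of 8 libraries, with summed heights of 354 and 408 at 0 h and 86 to 240 later. These values moved with the peak numbers at 0 h below, and their part in them was not tested.

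The pathway genes stayed accessible while they lost peaks after 0 h. With a gene called accessible where a peak was assigned to it in both libraries of a timepoint, 31 of the 34 genes (91.2%) were accessible at all 4 timepoints, against 72.8% of all genes accessible at any timepoint. The exceptions were Akt1s1, at 0 h only, Ddit4, at 0, 18 and 120 h, and Inpp5d, at 0, 18 and 48 h. Akt1s1 encodes PRAS40, an inhibitor of mTOR complex 1, Ddit4 encodes REDD1, a stress-induced inhibitor of mTOR signaling, and Inpp5d encodes the blood cell lipid phosphatase SHIP1. For Akt1 and Gsk3a the count rested on regions at the starts of neighbouring genes. The only Akt1 region with a peak in all 8 libraries lay 29540 bp downstream of the Akt1 start, at the start of Siva1, and those of Gsk3a lay at the starts of Dedd2 and Zfp526.

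The 0 h libraries held 170 and 157 pathway peaks, those of 18 h 87 and 103, those of 48 h 81 and 98, and those of 120 h 112 and 76. The 0 h numbers did not overlap with those of any later timepoint, whereas the 3 later timepoints overlapped with each other. The mean number of peaks per gene was, from 0 to 120 h, 4.81, 2.79, 2.63 and 2.76, and for all genes 3.15, 1.69, 1.65 and 1.78. In 18 of the 34 genes (52.9%) both 0 h libraries had more peaks than all 6 later ones, which held for 36.9% of all genes with a peak. When only as many of the highest peaks were kept in each library as the smallest library had, this was so for 4 of the 34 (11.8%) and for 2.53% of all genes that still had a peak. In no pathway gene did both 0 h libraries have fewer peaks than every later library (0.0698% of all genes). The pathway genes had a median of 4.5 peaks at 0 h, against 2.5 for all genes with a peak. The shares of all genes given here and below were not matched for the number of peaks per gene.

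**Figure D1:**
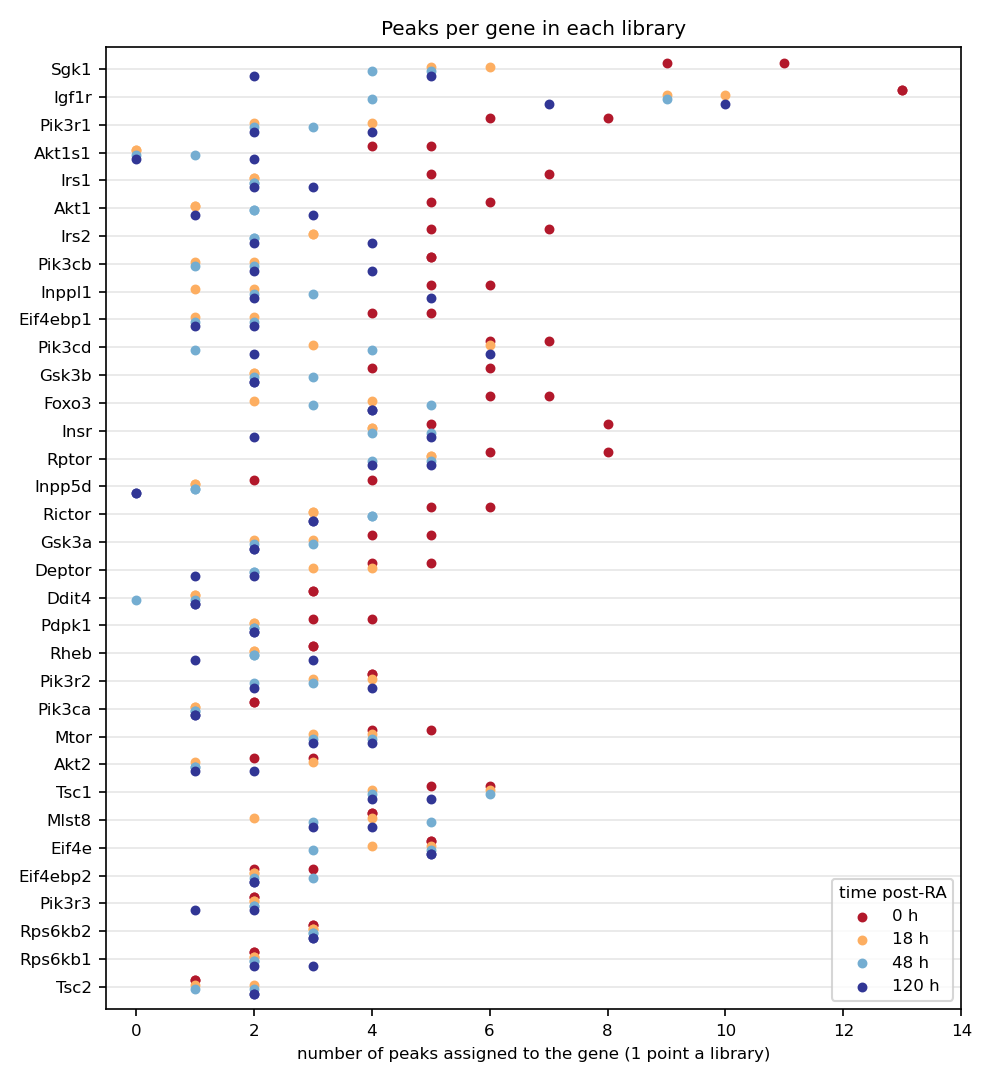
Number of peaks (horizontal axis) assigned to each of the 34 genes, with 1 point per library coloured by time post-RA and genes ordered by the mean at 0 h minus the mean of the later libraries. The 0 h points lie to the right of all later ones for 18 genes, among them Sgk1, Igf1r and Pik3r1, whereas Rps6kb2 has 3 peaks in every library.

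The gene that lost the most peaks was Sgk1, a kinase related to AKT that PDPK1 and mTOR complex 2 activate. Its 0 h libraries had 11 and 9 peaks, followed by 5 and 6 at 18 h, 4 and 5 at 48 h and, by 120 h, 5 and 2. Igf1r, the receptor for IGF1, had 13 in both 0 h libraries, then 9 and 10 at 18 h, 4 and 9 at 48 h and, by 120 h, 10 and 7. Pik3r1, which encodes the regulatory subunit p85 alpha, had 8 and 6 at 0 h, then 2 and 4 at 18 h, 3 and 2 at 48 h and, by 120 h, 4 and 2. In each of these 3 genes every 0 h library exceeded every later library. At the other end stood Tsc2, Rps6kb1 and Rps6kb2, the genes of tuberin and of both S6 kinases. Tsc2 had 1 peak in each 0 h library and 1 or 2 later, Rps6kb1 had 2 in all libraries but 120 h replicate 1, where it had 3, and Rps6kb2 had 3 throughout. By role, both 0 h libraries exceeded all later ones in 6 of 7 genes of AKT, PDPK1, SGK1, GSK3 and FOXO3, in 3 of 4 receptor and adaptor genes, in 3 of 6 genes each of PI3K subunits and mTOR complexes, in 1 of 2 lipid phosphatases, in 1 of 4 genes of TSC, RHEB and REDD1, and in 1 of 5 genes of S6 kinases and translation initiation, beside the 36.9% of all genes.

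Of the 207 regions, 140 were called, with a peak in both libraries of a timepoint, and 60 had a peak in 1 library alone. Most summits, 109, lay in introns, and 38 lay upstream and 37 downstream of the gene. A CpG island overlapped 31.9% of the pathway regions and 18.1% of all regions. Of the 140 regions, 54 (38.6%) were called at all 4 timepoints, against 25.3% of all called regions, and 50 (35.7%) at 0 h only, against 49.8%. With equal numbers of the highest peaks in each library, 14 of 96 called regions (14.6%) were called at 0 h only, against 9.52% of all called regions. The regions called at 0 h only were low at 0 h, with a median of 85.5 over the means of the 2 libraries, and those called throughout had a median of 328 (61.5 and 248 over all regions of these kinds). Of the 50 regions called at 0 h only, 27 were without a later peak, 16 had 1 later library with a peak, 6 had 2 such libraries and 1 had 3. Of the remaining regions, 3 were called at 0 and 120 h (2.14%, against 3.77%) and 9 at 0, 18 and 48 h (6.43%, against 5.76%). Regions called at 120 h only numbered 5 (3.57%, against 2.49% of all called regions). They numbered 10 without 120 h replicate 1 and 17 without 120 h replicate 2. A peak in 1 library then sufficed for a call at 120 h, so these counts could not fall.

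The highest region called at 0 h and without any later peak lay at chr7:25239211-25239517 (mm10), 1477 bp upstream of the start of Gsk3a, the gene of the glycogen synthase kinase GSK3 alpha. Its summit reached 212 and 305 at 0 h, both near the median of the regions found in all libraries, and no later library had a peak. It is shown as the pathway region that was highest at 0 h among those with no later peak. Capitals in this and the sequences below mark, on either strand, GGGCGG (the GC box), CCAAT (the CCAAT box) and GTAAACA (a forkhead motif), and all sequences are from the plus strand of GRCm38.
Gsk3a, chr7:25239211-25239478: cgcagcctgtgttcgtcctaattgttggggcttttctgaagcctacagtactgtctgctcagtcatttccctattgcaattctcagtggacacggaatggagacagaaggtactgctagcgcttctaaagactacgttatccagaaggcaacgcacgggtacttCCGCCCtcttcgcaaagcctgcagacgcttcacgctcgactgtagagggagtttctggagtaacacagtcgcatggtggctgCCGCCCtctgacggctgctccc
Ranked by the lower of both 0 h libraries, the next were 2 Akt1s1 regions and 1 each of Irs2 and Insr, whereas by the mean of both a Ddit4 region 6214 bp upstream of the start (167 and 89) exceeded that of Irs2. The Akt1s1 region 5496 bp downstream of the start, in a coding exon (chr7:44854340-44855033), reached 205 and 186 at 0 h, and the region 11512 bp downstream, beyond the gene, reached 92 and 171. The Irs2 region 238 bp downstream of the start, in the coding exon, reached 113 and 131, and the Insr region 34945 bp downstream, in an intron, reached 179 and 107. None of these 5 regions had a peak in any of the 6 later libraries.

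In 4 pathway regions peaks were called at a later timepoint and in neither 0 h library, and the share over all regions was not computed. An intronic region of Eif4e, 2961 bp downstream of the start, had summits of 121 and 73 at 120 h, and no peak at 0, 18 or 48 h. Eif4e encodes the cap-binding protein that 4E-BPs hold inactive. A region in the coding exon of Irs2, 1294 bp downstream, had 87 and 78 at 120 h alone. It lay within 1000 bp of the start of another gene, 9530052E02Rik, and next to the Irs2 region above that had peaks at 0 h alone. A Foxo3 intron, 15110 bp downstream, had 71 and 39 at 120 h alone, and an Igf1r intron, 109151 bp downstream, had 56 and 45 at 120 h and 44 in 18 h replicate 2. All 4 lay below the 120 h medians of 166 and 106 in both libraries. The Eif4e and Irs2 windows are shown because they carried the highest peaks gained by 120 h.
Eif4e, chr3:138529012-138529302: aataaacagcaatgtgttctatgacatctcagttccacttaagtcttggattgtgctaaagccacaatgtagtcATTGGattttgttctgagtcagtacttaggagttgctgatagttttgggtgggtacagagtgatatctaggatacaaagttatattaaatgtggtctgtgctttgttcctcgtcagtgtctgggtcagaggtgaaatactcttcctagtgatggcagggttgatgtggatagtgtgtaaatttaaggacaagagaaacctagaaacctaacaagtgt
Irs2, chr8:11006987-11007286: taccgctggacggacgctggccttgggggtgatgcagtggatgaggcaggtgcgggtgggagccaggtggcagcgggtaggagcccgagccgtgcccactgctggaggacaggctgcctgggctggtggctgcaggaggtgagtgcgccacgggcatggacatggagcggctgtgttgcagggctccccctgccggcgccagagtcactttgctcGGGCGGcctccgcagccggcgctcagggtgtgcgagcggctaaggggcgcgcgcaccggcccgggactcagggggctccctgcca

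A region within 1000 bp of the start was found in 30 of the 34 genes, and 28 of these 30 start regions overlapped a CpG island. Akt1s1, Pik3ca, Ddit4 and Gsk3a had none. In 23 genes the start region had a peak in all 8 libraries, and in 7 it did not. The start region of Irs1 had summits of 121 and 122 at 0 h, 59 in 120 h replicate 1, and no other peak. Sgk1 had 125 and 133 at 0 h and 44 in 18 h replicate 2, and Akt1 had 119 and 136 at 0 h and later 67 (48 h replicate 1) and 153 (120 h replicate 1). Pik3cd, the gene of the p110 delta catalytic subunit, had 122 and 150 at 0 h and 70 and 75 at 18 h, and no peak after that. Inpp5d had 97 and 87 at 0 h, between 38 and 48 in the 4 libraries of 18 and 48 h, and no peak at 120 h. These 5 start regions were lower at 0 h than every start region with a peak in all libraries, whose lowest 0 h values were 173 and 223. The start regions of Insr and Foxo3 were higher. Insr had 169 and 256 at 0 h, then 94 and 119 at 18 h, 91 and 113 at 48 h and, by 120 h, 72 in replicate 1 and no peak in replicate 2. Foxo3 lacked a peak at its start in 18 h replicate 1 alone, with 263 and 303 at 0 h and 166 and 170 at 120 h.

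**Figure D2:**
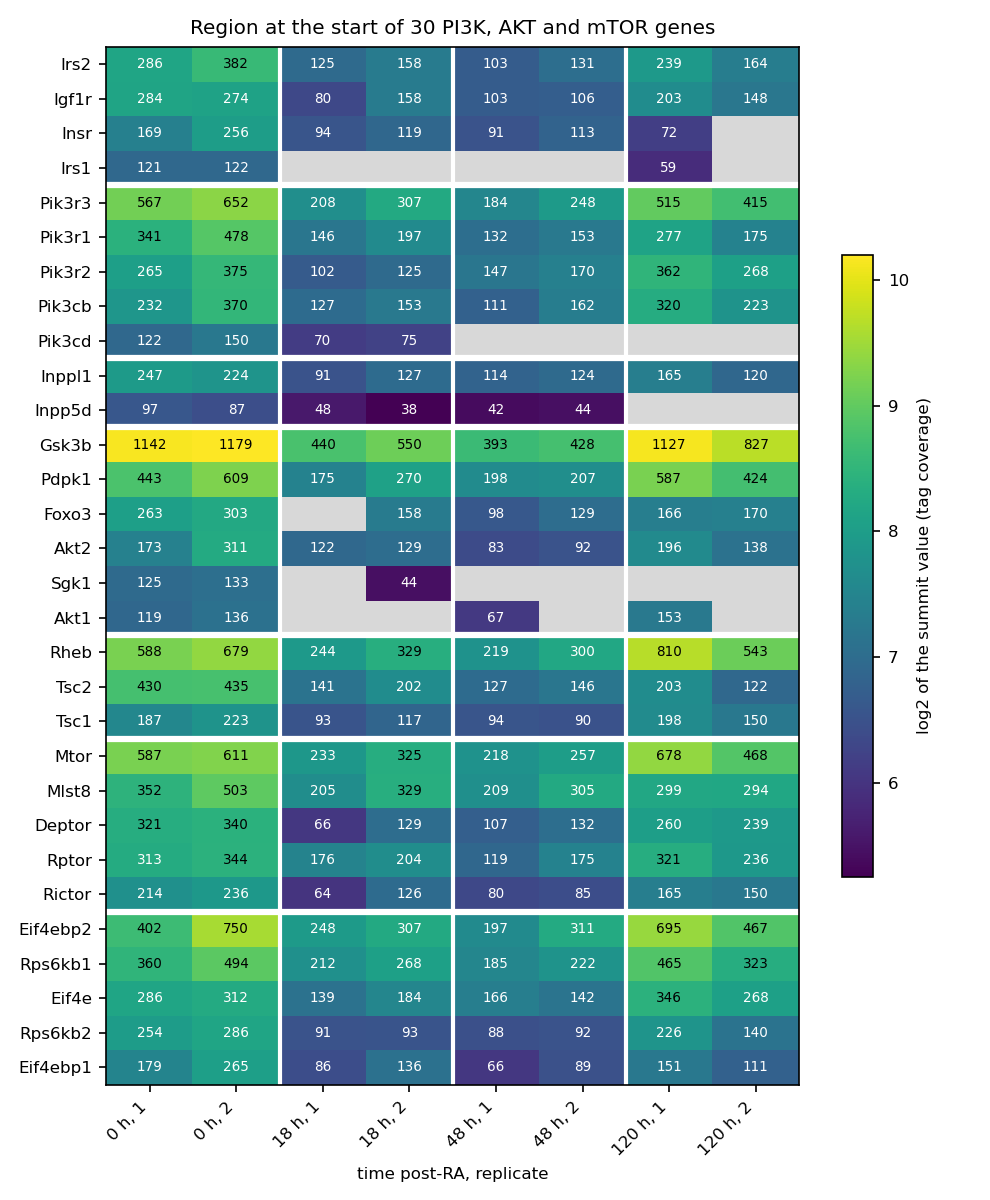
Summit value (tag coverage) in each library at the start region of 30 pathway genes, grouped by role and, in colour, on a log2 scale, with grey cells where no peak was called. Values fall from 0 h to 18 and 48 h in every gene with peaks there, and at 120 h the starts of Rheb, Mtor, Gsk3b and Eif4ebp2 are near their 0 h values, whereas that of Tsc2 is not.

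Heights were compared over time in the 54 pathway regions with a peak in all 8 libraries, which held 31 of the genes, by limma on log2 summit heights over all 15536 such regions with Benjamini-Hochberg adjustment. These regions passed through having a peak in every library, so regions that closed are not among them. In a bulk library, a lower summit does not tell fewer cells with the region open from less opening in each cell. On the deposited scale, at equal tag numbers, 50 of the 54 regions were lower at 18 h than at 0 h (92.3% of all regions were) and none was higher (0.296%). At 48 h it was again 50 lower and none higher (93.3% and 0.328%). The 4 regions that did not pass at 18 h were those of Eif4e 1777 bp downstream (log2 -0.71 ± 0.37, SE, limma adjusted p = 0.06), the Mlst8 start (-0.70, adjusted p = 0.0651), Rps6kb2 1389 bp downstream (-0.65, adjusted p = 0.0845) and Mtor 109850 bp downstream (-0.34, adjusted p = 0.37). In all 23 start regions with a full set of peaks, both 0 h values exceeded all 4 values of 18 and 48 h, as they did in 96.2% of all regions with a peak in every library. Without 0 h replicate 2, 31 regions were lower at 18 h, and without 18 h replicate 1 there were 23. Between 18 and 48 h no pathway region passed in either direction (0.00644% of all regions lower and 0% higher, and at an unadjusted p under 0.05 all regions gave 255 lower and 14 higher).

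At 120 h, 18 of the 54 regions were still lower than at 0 h (44.8% of all regions) and none was higher (0.882%), and 18 were higher than at 48 h (23.7%) and none lower (0.18%). In 17 of the 23 start regions both 120 h values exceeded all values of 18 and 48 h, which held for 60.6% of all regions at a gene start. These counts turned on single libraries. The regions lower at 120 h than at 0 h numbered 11 without 0 h replicate 2, 29 without 120 h replicate 1 and 10 without 120 h replicate 2. Those higher at 120 h than at 48 h numbered 11 without either 0 h library, 35 without 120 h replicate 2, and 0 without 120 h replicate 1 or either 48 h library.

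Since most regions with a peak in every library fell together, each library was also centred on its median height. The size factors of the study's own test were not computed. On this relative scale a region rises or falls against the median region of its library. The median change of all regions went from -0.75 to 0.14 (log2, 120 h against 0 h), so this centring did not bring it to 0. No pathway region passed at 18 h (0.225% of all regions lower and 1.25% higher). At 48 h 2 were lower (1.51%) and 2 higher (3.26%) than at 0 h. The lower count was 0 without any of the 0 or 48 h libraries and 1 without either 18 h library, and the higher count was 0 without 0 h replicate 2 or either 48 h library and 1 without any of the others. At 120 h, 6 were lower (15.8% of all regions) and 15 higher (23%). These were 11.1% and 27.8% of the 54, near the shares of all regions. Quantile normalization gave 7 lower and 3 higher, and removal of a trend with GC content gave 9 and 9. Without 0 h replicate 1 there were 3 lower and 8 higher, and without 120 h replicate 2 there were 6 higher. Against 48 h, 2 regions were lower (7.45%) and 6 higher (9.47%) at 120 h. Without 120 h replicate 2 or 48 h replicate 2 there were none of either, and without 48 h replicate 1 there was 1 lower and none higher.

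Direction was counted by position. Of the 33 pathway regions within 1000 bp of any gene start, 13 (39.4%) were higher at 120 h and 2 lower, with a median log2 change of 0.45, and of all such regions 29.6% were higher and 8.42% lower (median 0.32). A CpG island overlapped 32 of the 33 and 88.7% of all such regions. Among those with an island, 40.6% of the pathway regions and 31.9% of all regions were higher. The 33 hold the 23 start regions of the pathway genes themselves, of which 11 were higher and 1 lower, and 10 at the starts of other genes. Of the 21 pathway regions over 1000 bp from every assigned start, 2 were higher and 4 lower (median -0.33), and of all such regions 13.8% were higher and 25.8% lower (median -0.18). Both higher regions lay near that limit, 1018 bp upstream of the Foxo3 start and 1389 bp downstream of that of Rps6kb2. A region counted as within 1000 bp if its peak in any library did. The Eif4e start region, with its highest summit 1009 bp downstream, counted in this way.

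**Figure D3:**
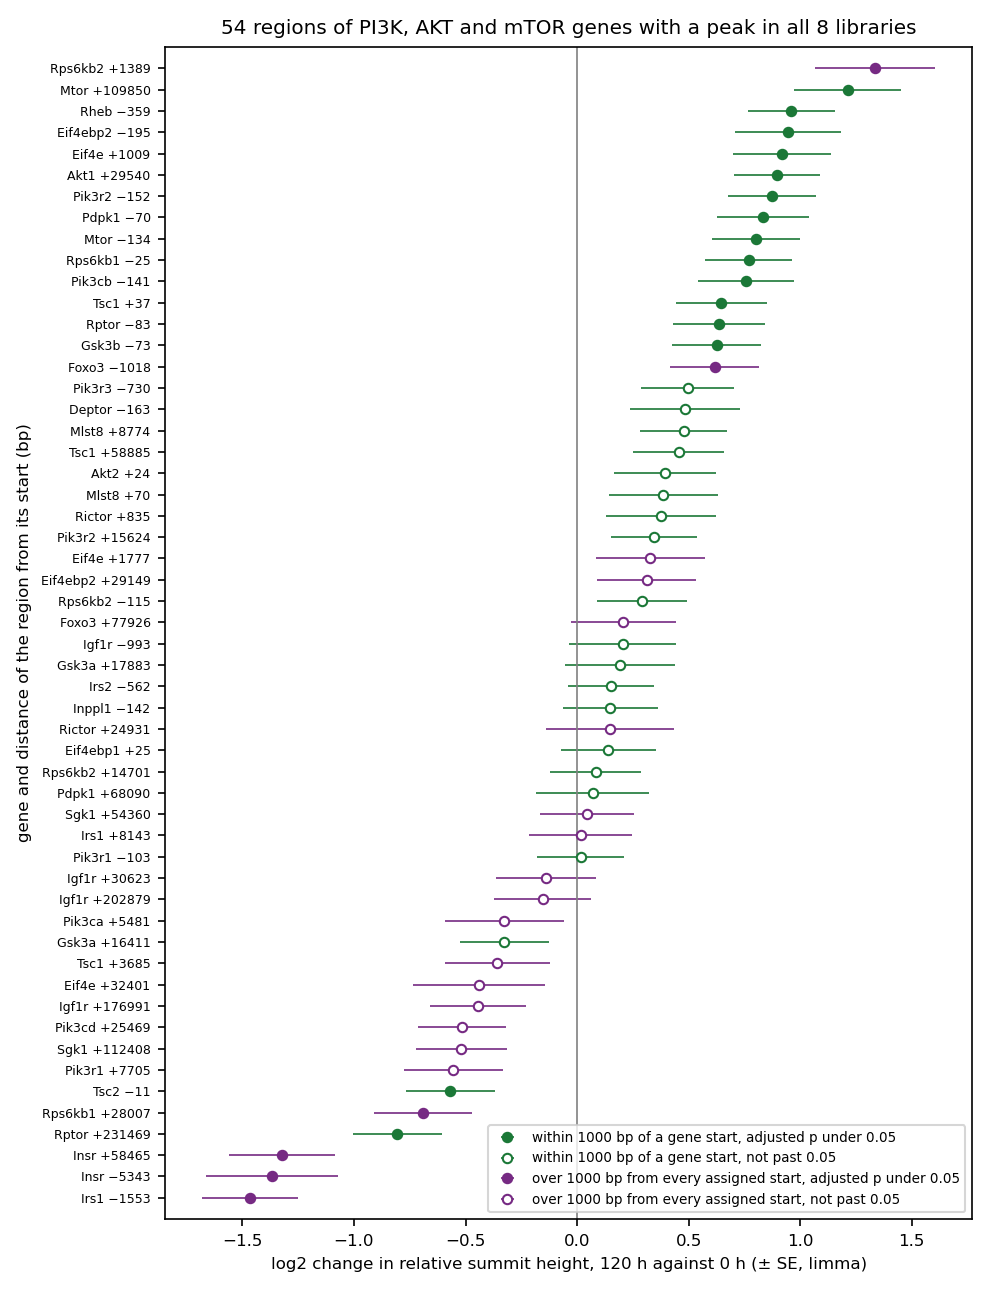
Log2 change in summit height at 120 h against 0 h, relative to each library's median region, for the 54 regions found in every library (points, with SE from limma as bars). Regions within 1000 bp of a gene start are green and others purple, and filled points passed an adjusted p of 0.05. The 15 filled points on the right are mostly gene starts, and 3 of the 6 on the left belong to Irs1 and Insr.

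Receptor and adaptor genes held 9 of the 54 regions. At 120 h, 3 were lower relative to the median (15.8% of all regions) and none higher (23%), and these were the 3 largest falls among the 54. All 3 lay over 1000 bp from every assigned start, where 25.8% of all regions were lower and 13.8% higher. In Irs1, an adaptor of the insulin and IGF1 receptors, a region 1553 bp upstream of the start (chr1:82292745-82293239) had summits of 256 and 397 at 0 h, then 104 and 101 at 18 h, 70 and 87 at 48 h and, by 120 h, 76 and 51. Every later value lay below both 0 h values. Relative to the library median, the region went from 1.14 and 1.47 times the median at 0 h to 0.46 and 0.48 times at 120 h, a log2 change of -1.47 ± 0.22 (SE, limma adjusted p = 0.000516). It was also lower at 120 h than at 48 h (-0.83 ± 0.22, adjusted p = 0.0283), a call lost without any of the 48 or 120 h libraries (0.0627 to 0.145). The Irs1 region 8143 bp downstream of the start, in an intron and also assigned to Gm19537, had summits of 297 and 375 at 0 h, then 62 and 119 at 18 h, 79 and 112 at 48 h and, by 120 h, 210 and 158. Its relative log2 change at 120 h was 0.02 and did not pass (limma adjusted p = 0.958). On the deposited scale it was lower at 120 h than at 0 h (log2 -0.87, adjusted p = 0.0425), a call lost without any library of 0, 18 or 48 h or 120 h replicate 2 (0.0509 to 0.291). The upstream window is printed as the region with the largest fall.
Irs1, chr1:82292843-82293142: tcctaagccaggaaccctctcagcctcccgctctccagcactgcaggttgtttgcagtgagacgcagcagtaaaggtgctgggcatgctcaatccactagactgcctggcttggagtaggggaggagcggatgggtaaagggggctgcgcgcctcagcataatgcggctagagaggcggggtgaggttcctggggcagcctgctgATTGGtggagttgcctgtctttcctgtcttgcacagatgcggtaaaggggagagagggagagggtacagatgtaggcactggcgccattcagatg

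Insr, the insulin receptor gene, had 2 such regions. One lay 5343 bp upstream of the start (chr8:3284734-3285226), with 332 and 406 at 0 h, then 136 and 177 at 18 h, 108 and 177 at 48 h and, by 120 h, 140 and 42. Its relative height was level through 48 h, between 1.26 and 1.74 times the median, and lower in both 120 h libraries, at 0.84 and 0.40, which differed from each other. The log2 change was -1.37 ± 0.30 from 0 h (limma adjusted p = 0.00416) and -1.35 ± 0.30 from 48 h (adjusted p = 0.0192, lost without 48 h replicate 2 or 120 h replicate 2, at 0.136 and 0.109). The other lay in an intron 58465 bp downstream (chr8:3220756-3221727) and overlapped a CpG island. Its summits were 488 and 516 at 0 h, then 162 and 224 at 18 h, 100 and 105 at 48 h and, by 120 h, 172 and 68. It had already fallen at 48 h (relative log2 -0.90 ± 0.24, adjusted p = 0.0457) and stayed low at 120 h (-1.32 ± 0.24, adjusted p = 0.00154). The 48 h call was lost without any of the 0, 18 or 48 h libraries, at adjusted p from 0.0661 to 0.214, and with the mean signal of the peak in place of its summit (0.103). The intronic window is GC-rich (64%) and holds a CCAAT box next to a GC box, and the upstream window (47.7% GC) holds none of the motifs.
Insr, chr8:3221003-3221302: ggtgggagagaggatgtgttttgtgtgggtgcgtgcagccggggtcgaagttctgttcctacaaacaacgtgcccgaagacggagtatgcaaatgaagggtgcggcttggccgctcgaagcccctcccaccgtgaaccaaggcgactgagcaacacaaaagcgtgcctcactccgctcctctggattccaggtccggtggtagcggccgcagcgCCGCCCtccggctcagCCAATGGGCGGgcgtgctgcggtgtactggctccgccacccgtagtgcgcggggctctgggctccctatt
Insr, chr8:3284811-3285110: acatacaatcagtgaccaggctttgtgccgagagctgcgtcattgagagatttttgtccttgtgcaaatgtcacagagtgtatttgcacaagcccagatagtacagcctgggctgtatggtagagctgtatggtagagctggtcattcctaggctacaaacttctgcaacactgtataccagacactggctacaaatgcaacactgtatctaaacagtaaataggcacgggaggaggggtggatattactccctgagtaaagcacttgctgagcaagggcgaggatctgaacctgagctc

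In Igf1r, an intronic region 176991 bp downstream of the start (chr7:68128943-68129612) was the highest of the gene, with 763 and 745 at 0 h, then 169 and 284 at 18 h, 146 and 168 at 48 h and, by 120 h, 350 and 255. All later values lay under the 0 h values, and the lower of the 120 h values lay within the range of 18 and 48 h. Its relative height was lower at 48 h (log2 -0.87 ± 0.22, limma adjusted p = 0.0348) and did not pass at 120 h. On the deposited scale it was lower at 18 h (-1.78 ± 0.37, adjusted p = 3.88e-05) and at 120 h (-1.34 ± 0.37, adjusted p = 0.00147). The 48 h call was lost without any of the 0 h or 48 h libraries, at adjusted p from 0.0525 to 0.182. The window around the summit holds a forkhead motif and CCAAT boxes.
Igf1r, chr7:68129099-68129398: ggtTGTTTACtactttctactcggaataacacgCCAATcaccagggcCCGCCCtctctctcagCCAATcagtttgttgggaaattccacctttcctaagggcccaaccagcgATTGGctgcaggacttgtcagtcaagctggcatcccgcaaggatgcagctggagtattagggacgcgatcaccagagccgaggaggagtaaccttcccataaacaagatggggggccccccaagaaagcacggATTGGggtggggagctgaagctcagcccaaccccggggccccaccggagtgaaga
The start regions of Igf1r and Irs2 changed by a relative log2 of 0.20 and 0.15 at 120 h, and neither passed.

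**Figure D4:**
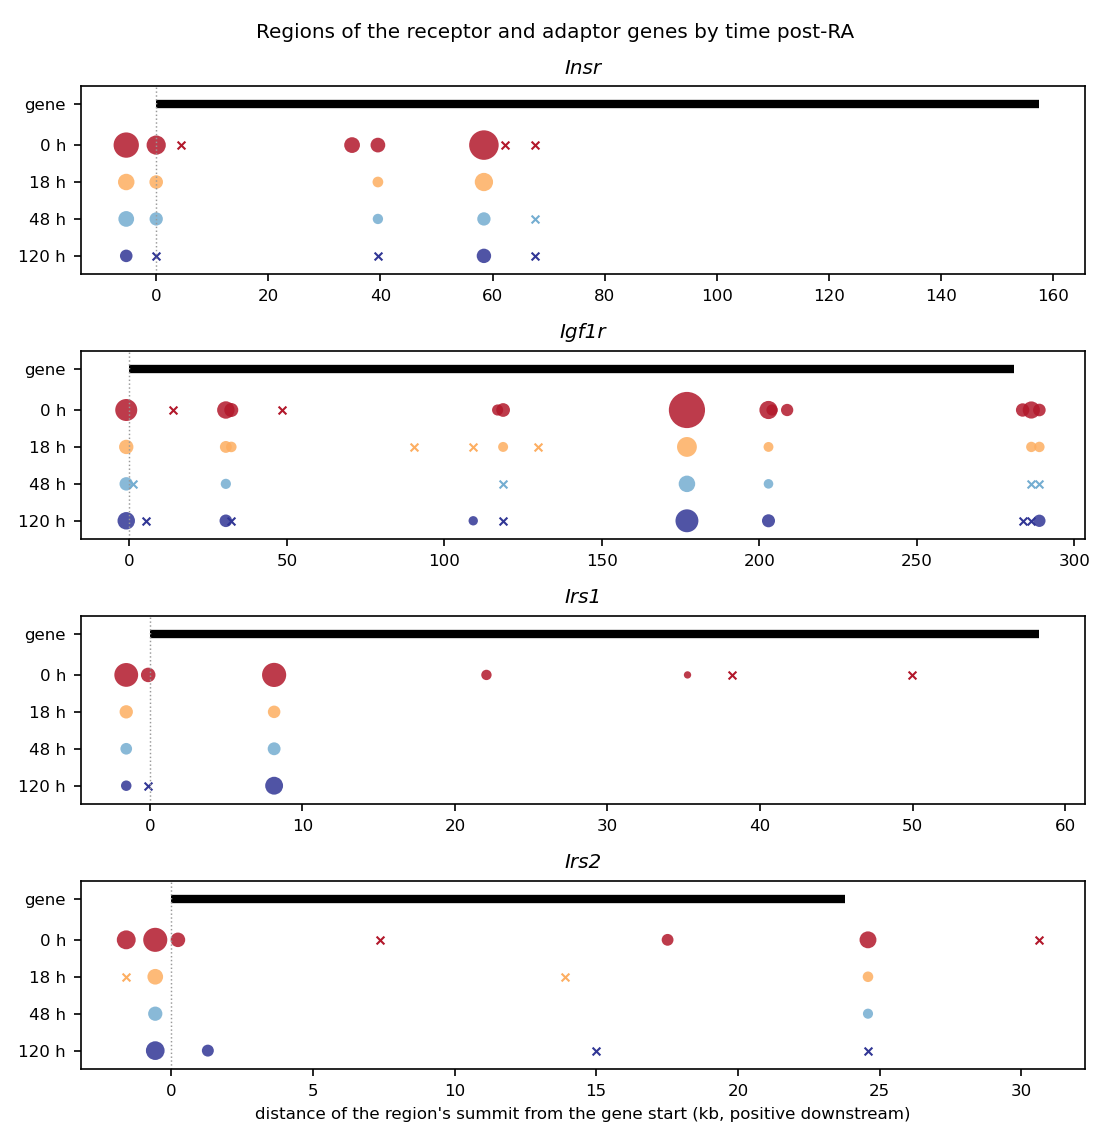
Regions of Insr, Igf1r, Irs1 and Irs2 by distance of the summit from the gene start (kb, horizontal axis) and time post-RA (rows). Discs mark regions with a peak in both libraries, with an area proportional to the mean summit value, crosses mark a peak in 1 library, and the black bar is the gene. Discs are most frequent and largest at 0 h in all 4 genes, and the Irs2 row at 120 h has a disc 1294 bp downstream of the start that no other row has.

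Among the PI3K subunits, 2 of 8 regions were higher at 120 h relative to the median (23% of all regions) and none lower (15.8%). At the start of Pik3r2, the gene of the p85 beta regulatory subunit, summits were 265 and 375 at 0 h, then 102 and 125 at 18 h, 147 and 170 at 48 h and, by 120 h, 362 and 268. This region, which lies at the start of 2010320M18Rik too, went from 1.18 and 1.39 times the library median at 0 h to 2.18 and 2.53 times at 120 h (relative log2 0.87 ± 0.20, limma adjusted p = 0.00546). The start of Pik3cb, the p110 beta catalytic subunit, had 232 and 370 at 0 h, then 127 and 153 at 18 h, 111 and 162 at 48 h and, by 120 h, 320 and 223 (0.76 ± 0.21, adjusted p = 0.0148), a call lost without 0 h replicate 1 or 120 h replicate 2 (0.128 and 0.0832). The 120 h values of both genes overlapped with those of 0 h on the deposited scale and lay above them relative to the median. The start of Pik3r1 stayed level relative to the median, between 1.50 and 1.77 times in all 8 libraries, and the start of Pik3r3 did not pass. Pik3ca, the p110 alpha gene, had no start region, and its only region in all libraries, in an intron 5481 bp downstream, had 327 and 230 at 0 h, then 123 and 124 at 18 h, 92 and 118 at 48 h and, by 120 h, 174 and 80.

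Of the lipid phosphatases, the start of Inppl1, which encodes SHIP2, had 247 and 224 at 0 h, then 91 and 127 at 18 h, 114 and 124 at 48 h and, by 120 h, 165 and 120, and its relative change of 0.15 at 120 h did not pass. Of the kinases, Pdpk1 and Gsk3b rose relative to the median. Pdpk1, which phosphorylates AKT and the S6 kinases, had 443 and 609 at its start at 0 h, then 175 and 270 at 18 h, 198 and 207 at 48 h and, by 120 h, 587 and 424 (relative log2 0.83 ± 0.21, limma adjusted p = 0.00796). Gsk3b had the highest start region of the pathway, with 1142 and 1179 at 0 h, then 440 and 550 at 18 h, 393 and 428 at 48 h and, by 120 h, 1127 and 827 (0.63 ± 0.20, adjusted p = 0.0252). The Pdpk1 call was lost without 0 h replicate 1 or 120 h replicate 2 (adjusted p = 0.0543 and 0.0568), and the Gsk3b call without 0 h replicate 2 or 120 h replicate 2 (adjusted p = 0.139 and 0.138). Akt2 kept near the median at its start, with 0.77 to 1.34 times in all libraries. A region 1018 bp upstream of Foxo3, a factor that AKT keeps out of the nucleus, had 742 and 862 at 0 h, then 263 and 404 at 18 h, 242 and 308 at 48 h and, by 120 h, 791 and 553 (0.62 ± 0.20, adjusted p = 0.0266), and its call was lost without either 0 h library or 120 h replicate 2 (adjusted p from 0.0821 to 0.124). The region downstream of Akt1 at the start of Siva1 also rose, with 896 and 1070 at 0 h, then 402 and 569 at 18 h, 349 and 409 at 48 h and, by 120 h, 1213 and 796 (0.90 ± 0.19, adjusted p = 0.00399).

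The starts of Rheb and Tsc1 rose and that of Tsc2 fell relative to the median. Rheb, the GTPase that activates mTOR complex 1, had summits of 588 and 679 at 0 h, then 244 and 329 at 18 h, 219 and 300 at 48 h and, by 120 h, 810 and 543. Its height was between 2.51 and 2.94 times the library median through 48 h and 4.88 and 5.12 times at 120 h, with no overlap (relative log2 0.96 ± 0.19 against 0 h, limma adjusted p = 0.00302, and 0.87 ± 0.19 against 48 h, adjusted p = 0.0203). Tsc2, whose product turns RHEB off, had 430 and 435 at 0 h, then 141 and 202 at 18 h, 127 and 146 at 48 h and, by 120 h, 203 and 122. Its start, which it shares with Nthl1, went from 1.92 and 1.61 times the median at 0 h to 1.22 and 1.15 times at 120 h (-0.57 ± 0.20, adjusted p = 0.0373). The Tsc2 call was lost without either library of 0, 48 or 120 h, at adjusted p from 0.0506 to 0.21, whereas on the deposited scale the fall held under every alternative (-1.46 ± 0.37, adjusted p = 0.000488, at most 0.0235). The start of Tsc1, which stabilises TSC2, had 187 and 223 at 0 h, then 93 and 117 at 18 h, 94 and 90 at 48 h and, by 120 h, 198 and 150 (relative log2 0.65 ± 0.20, adjusted p = 0.0242). The Tsc1 call was lost without either 0 h library or 120 h replicate 2 (adjusted p from 0.0801 to 0.145), and the Rheb call against 48 h without 120 h replicate 2 or either 48 h library (0.0858 to 0.114). The start of Rheb is shown from its upstream side, with neighbouring CCAAT boxes, as the pathway start with the largest rise.
Rheb, chr5:24842625-24842870: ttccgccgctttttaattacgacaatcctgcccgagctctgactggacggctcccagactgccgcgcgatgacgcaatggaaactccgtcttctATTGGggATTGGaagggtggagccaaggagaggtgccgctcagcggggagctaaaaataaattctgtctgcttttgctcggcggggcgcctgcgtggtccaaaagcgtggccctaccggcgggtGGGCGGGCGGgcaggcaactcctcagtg

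**Figure D5:**
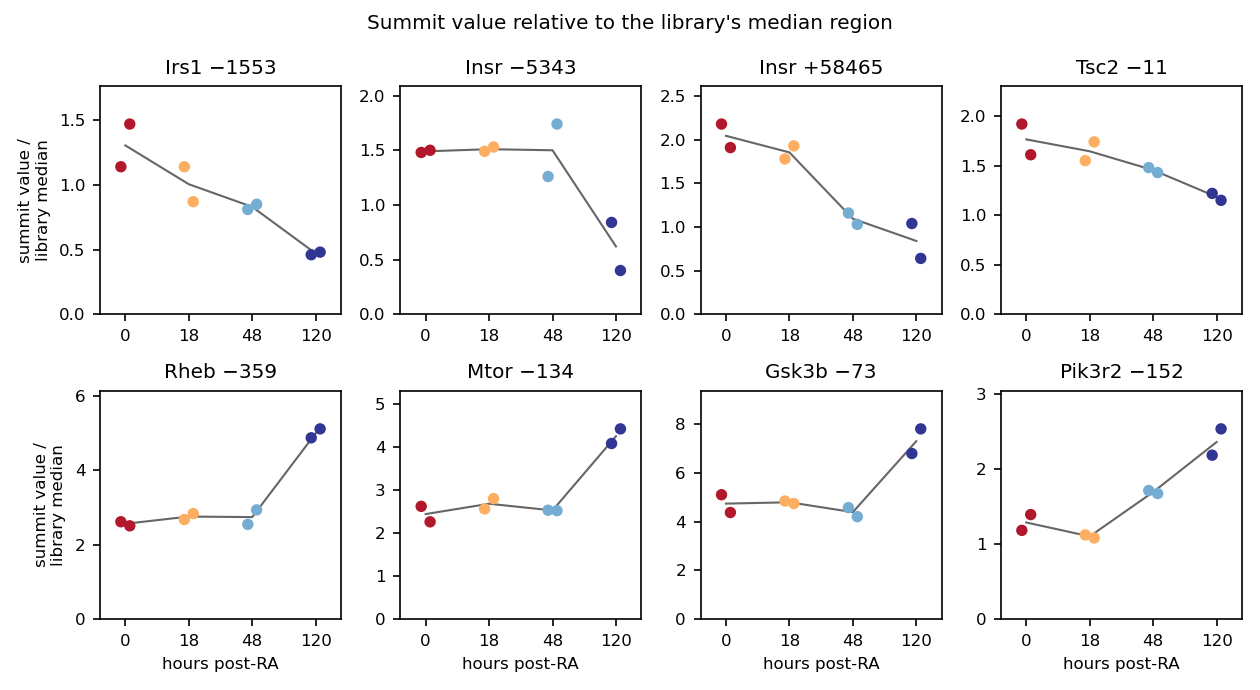
Summit value as a multiple of the library's median region by hours post-RA for 8 regions, named by gene and distance from the start in bp (points, 1 per library, and a line through the means). The Irs1, Insr and Tsc2 regions are lowest at 120 h, with Irs1 at 0.46 and 0.48, and the Rheb, Mtor, Gsk3b and Pik3r2 starts are highest there, with Rheb at 4.88 and 5.12.

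Of the mTOR complex genes, Mtor and Rptor were higher at their starts. Mtor, the kinase itself, had 587 and 611 at 0 h, then 233 and 325 at 18 h, 218 and 257 at 48 h and, by 120 h, 678 and 468. Relative to the median its start stayed between 2.26 and 2.80 times through 48 h and reached 4.08 and 4.42 times at 120 h (log2 0.80 ± 0.20 against 0 h, limma adjusted p = 0.00761, and 0.75 ± 0.20 against 48 h, adjusted p = 0.0285). Rptor, which recruits the substrates of complex 1, had 313 and 344 at 0 h, then 176 and 204 at 18 h, 119 and 175 at 48 h and, by 120 h, 321 and 236 (0.64 ± 0.21, adjusted p = 0.0265). The Rptor call was lost without either 0 h library or 120 h replicate 2 (adjusted p from 0.0651 to 0.143), and that of Mtor against 0 h without 0 h replicate 2 (0.051) and against 48 h without 120 h replicate 2 or either 48 h library (0.0931 to 0.142). The starts of Mlst8, Deptor and Rictor, the genes of a shared subunit, an inhibitor and the scaffold of complex 2, did not pass, with relative changes of 0.39, 0.48 and 0.38. At the start of Deptor, 18 h replicate 1 was low, at 66, against 129 in replicate 2. Mtor and Rptor also had regions at the starts of other genes, and these moved in opposite directions. The region at the Exosc10 start, 109850 bp downstream of the Mtor start, had 78 and 117 at 0 h, then 65 and 88 at 18 h, 67 and 53 at 48 h and, by 120 h, 132 and 108 (1.21 ± 0.24, adjusted p = 0.00258). The one at the A430071A18Rik start, in a Rptor intron 231469 bp downstream, had 404 and 399 at 0 h, then 142 and 205 at 18 h, 105 and 131 at 48 h and, by 120 h, 155 and 99 (-0.81 ± 0.20, adjusted p = 0.0082, lost without 0 h replicate 1, at 0.0695). The window upstream of the Mtor start, with several CCAAT and GC boxes, is shown as the start of the kinase that names the pathway.
Mtor, chr4:148448299-148448598: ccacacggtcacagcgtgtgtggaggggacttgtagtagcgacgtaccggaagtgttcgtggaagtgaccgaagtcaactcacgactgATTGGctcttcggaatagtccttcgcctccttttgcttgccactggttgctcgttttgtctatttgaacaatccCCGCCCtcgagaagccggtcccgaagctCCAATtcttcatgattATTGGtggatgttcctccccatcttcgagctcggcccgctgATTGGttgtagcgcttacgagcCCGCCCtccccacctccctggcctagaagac

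Of the translation effectors, Eif4e, Eif4ebp2 and Rps6kb1 were higher at their starts, and Eif4ebp1 and Rps6kb2 were not. The start of Eif4e had 286 and 312 at 0 h, then 139 and 184 at 18 h, 166 and 142 at 48 h and, by 120 h, 346 and 268 (relative log2 0.92 ± 0.22, limma adjusted p = 0.00667). Eif4ebp2, a 4E-BP, had 402 and 750 at 0 h, which differed the most among the pathway starts, then 248 and 307 at 18 h, 197 and 311 at 48 h and, by 120 h, 695 and 467 (0.94 ± 0.24, adjusted p = 0.0088). Rps6kb1, an S6 kinase, had at its start 360 and 494 at 0 h, then 212 and 268 at 18 h, 185 and 222 at 48 h and, by 120 h, 465 and 323 (0.77 ± 0.19, adjusted p = 0.00877). A region in its coding sequence, 28007 bp downstream, was lower, with 249 and 303 at 0 h, 131 in both 18 h libraries, 89 and 117 at 48 h and, by 120 h, 134 and 63 (-0.69 ± 0.22, adjusted p = 0.0252). Without 120 h replicate 2 these calls were lost at the starts of Eif4e, Eif4ebp2 and Rps6kb1 (adjusted p = 0.0569, 0.0527 and 0.0556), and without 0 h replicate 1 at those of Eif4ebp2 and Rps6kb1 (0.0952 and 0.0633). The Rps6kb1 coding region did not pass without either 0 h library or 120 h replicate 2 (0.0775 to 0.195). In Rps6kb2 the largest rise of the pathway lay in an intron 1389 bp downstream of the start (chr19:4161654-4162065), with 177 and 129 at 0 h, then 90 and 103 at 18 h, 105 and 137 at 48 h and, by 120 h, 325 and 130. The 120 h libraries differed there, at 1.96 and 1.23 times the median, and both exceeded the 0 h values of 0.79 and 0.48 (1.33 ± 0.27, adjusted p = 0.00302). It was also higher at 48 h (1.06 ± 0.27, adjusted p = 0.0401), as was the Eif4e intron 1777 bp downstream, from 0.54 and 0.71 times the median at 0 h to 1.17 in both 48 h libraries (0.92 ± 0.25, adjusted p = 0.0494). The 48 h call of Rps6kb2 was lost without 0 h replicate 2 or any 18 or 48 h library (adjusted p from 0.0579 to 0.244), and that of Eif4e without any 0, 48 or 120 h library (0.0511 to 0.239).

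The rises and the falls at 120 h differed between the scales. On the deposited scale the 15 regions that rose relative to the median differed from 0 h by log2 values from -0.27 to 0.44, of which 9 were below 0, and none passed. Their heights at 120 h were thus near those at 0 h, while that of the median region was lower. The 6 regions that fell were lower on both scales, by -2.36 to -1.46 on the deposited scale. Of the 21 relative calls, 6 held under all alternatives in which the region could be tested, namely both Insr regions, Irs1 upstream, the Pik3r2 start, the Rps6kb2 intron and the Mtor region at Exosc10. Quantile normalization ended 13 of the 21 calls, with those at the starts of Rheb, Mtor, Pdpk1 and Gsk3b at adjusted p of 0.126, 0.295, 0.19 and 0.875 in limma. Without 120 h replicate 2, 11 calls were lost, and without 0 h replicate 1, 10.

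Over all 207 pathway regions, a window of 300 bp around the summit held the GC box GGGCGG in 31.4%, against 23.5% of all regions, and in 70.9% of the pathway regions at a gene start, against 59.9% of all such regions. CCAAT was found in 33.8% and 33.5%, and the nuclear receptor half-site AGGTCA in 12.6% and 15.7%. The forkhead motif GTAAACA, which FOXO proteins among others bind, was found in 19 of the 207 windows (9.18%), against 5.2% of all, among them regions of Irs1, Sgk1, Pik3r1 and the Igf1r intron above. The E-box CACGTG was in 7.25% and 7.12%, the CRE site TGACGTCA in 0.966% and 1.01%, and the palindromic NRF1 site in 0.966% and 0.707%. Retinoic acid response elements of the DR5 and DR2 types were in no pathway window, and in 0.141% and 0.252% of all windows. In RefSeq promoters, unlike these windows, GTAAACA was less frequent in pathway genes, in 1 of 47 promoters (2.13%), against 3.65% of all promoters. Both strands were searched, and a match of letters is no evidence that a factor binds.

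Other genes of the pathway, from a list of 55 of which 54 had peaks, were set beside these. Both 0 h libraries had more peaks than all later ones in 16 of the 54 (29.6%), against 36.9% of all genes with a peak. Their regions found in every library numbered 79. At 120 h, 23 were higher relative to the median (29.1%, against 23% of all regions) and 7 lower (8.86%, against 15.8%). Among the higher was the start of Kit, the stem cell factor receptor that marks differentiating spermatogonia, with a relative log2 of 1.65 ± 0.20 (limma adjusted p = 0.00015). A region upstream of Rragd, a GTPase that brings mTOR complex 1 to lysosomes, was lower, by -1.24 ± 0.22 (adjusted p = 0.00129).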

How the data were processed

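The 8 ATAC-seq libraries were grouped into 4 timepoints, 0 to 120 h post-RA, by the sample labels. By the submitters' processing notes and the methods, the authors aligned reads to mm10 with BWA (0.7.12), removed duplicates and mitochondrial tags, reduced all libraries to the same tag number and called peaks per library with MACS2 (2.1.0), without a control and outside blacklisted regions. They deposited, for each peak, the signal (tag coverage) at the summit, the mean signal and the genes within 10 kb. No reads per region were given in the sources used here, so the depth behind a peak is unknown, no counting interval could be computed, and the differential test on counts that the study describes was not run.

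Overlapping peaks (1 bp or more) were joined into regions, and a timepoint was counted where both libraries had a peak. Log2 summit values of the regions found in all 8 libraries were compared with limma (3.58.1, R 4.3.3) in 4 groups, with Benjamini-Hochberg adjustment per comparison over all 15536 regions and a threshold of 0.05, on the deposited scale and after subtraction of each library's median. The fit was also run on simulated data with known changes at 18 h only, a setting that does not cover the changes called at 120 h. Features were taken from GENCODE M21, and sequences from GRCm38.

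The regions described were each gene's start region, every region past the threshold on the relative scale, the 5 highest regions found at 0 h alone (by the lower of both libraries), those found at a later timepoint and not at 0 h, and the 3 genes with the largest and the 3 with the smallest loss of peaks. The genes and all lists were chosen with earlier results of these data known. Alternatives were a replicate block, only the libraries compared, an intensity trend, removal of a GC trend, quantile normalization, the mean signal, an offset of 10, values of at least 50, equal numbers of the highest peaks, summits widened by 100 bp either way, a peak in 1 library, peaks within a gene or 1000 bp of its start, and each library left out in turn. Browser tracks were not used.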

Additional observations from a re-analysis of the deposited data

How the results depend on the processing

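Counts of pathway regions or genes that moved by over 1.5 times are given here, each beside the count reported. Of 18 regions higher at 120 h than at 48 h on the deposited scale, 7 passed with only the libraries compared and 11 with a replicate block. On the relative scale, removal of a GC trend, with or without the replicate block, gave 1 region higher at 18 h in place of 0. At 48 h the 2 lower regions became 1 with mean signal or with values of at least 50, and the 2 higher became 1 with mean signal or quantile normalization and 0 with values of at least 50. At 120 h against 0 h the 15 higher regions became 9 without the GC trend and 3 with quantile normalization. Against 48 h the 2 lower regions became 0 with quantile normalization, and the 6 higher became 10 with an intensity trend or an offset of 10 and 0 with quantile normalization. The 5 regions called at 120 h only became 3 with values of at least 50, 15 with a peak in either library and 8 with summit windows. The 18 genes with more peaks at 0 h became 4, and the 50 regions at 0 h only became 14, with equal numbers of the highest peaks, and the 18 became 11 with peaks in the gene or within 1000 bp of its start. The causes were not tested.

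Leaving out each library in turn gave 23 to 53 regions lower at 18 h and 40 to 52 at 48 h, 10 to 29 lower and 0 to 1 higher at 120 h than at 0 h, and 0 to 1 lower and 0 to 35 higher at 120 h than at 48 h, on the deposited scale. On the relative scale it gave 0 to 2 lower and 0 to 1 higher at 48 h, 3 to 6 lower and 6 to 16 higher at 120 h against 0 h, and 0 to 2 lower and 0 to 7 higher against 48 h. It gave 4 to 17 regions at 120 h only and 38 to 75 at 0 h only. At the timepoint that had lost a library, a peak in the library left sufficed for a call. With 1 library left at a timepoint, that library was assumed to vary like the others.

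The labels number the replicates 1 and 2 at each timepoint, but deviations of same-numbered libraries correlated between -0.224 and 0.249 over 6 pairs of timepoints, so the numbers were not taken to pair the samples. The replicate block moved no other count by over 1.5 times. No called change of a described region reversed under any alternative within its scale. With 2 libraries per timepoint and no reads per region, a region without a peak has no height, and losses of low regions could not be sized.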
